A study of Mus musculus with 12 samples.

Results

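Copy number of 10 genes for histone and DNA modifiers was read in a pair of primary mouse pancreatic ductal adenocarcinoma (PDAC) cell lines, 15376T and 14837T. The genes were Kmt2a, Kmt2c, Kmt2d, Setd2, Ezh2, Dnmt3a, Dnmt3b, Tet2, Sirt1 and Sirt6. They were chosen by name and not by a rule on their copy number, though with earlier results of these data known. Each was found by its symbol in the gene column of the segment tables of both lines, which held 22035 gene names. Whole-exome sequencing (WES) of genomic DNA gave 1 library per line, WES-15376T and WES-14837T, so no value has a replicate, no test was possible and all comparisons are descriptions of these libraries, which are called by their line from here on. The lines were derived from C57BL/6 mice that carry p48-Cre, ROSA_rtTA and a single floxed p53 allele (p53 L/+). The promoter of p48 (Ptf1a) drives Cre in pancreatic cells, rtTA is a transcription factor that acts with doxycycline, and both lines are kept in DMEM with 10% serum and doxycycline. The genotype label of both libraries is WT, which sets them apart from the Lin28b knockout of 15376T that was studied by RNA-seq and is not analysed here. Each is a single cultured line from a tumor, and DNA of wild-type tail was not analysed here.

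Histone methyltransferases of the KMT2 family place methyl groups on lysine 4 of histone H3 at enhancers and promoters, Setd2 marks lysine 36 of H3 over transcribed genes, and Ezh2 marks lysine 27 of H3 at silenced genes. Dnmt3a and Dnmt3b methylate cytosine in CpG pairs, Tet2 oxidizes this methyl group, and the sirtuins Sirt1 and Sirt6 remove acetyl groups from histones with NAD as cofactor. Genes of this kind are among those mutated or deleted in human PDAC. Loss of Sirt6 was examined in this study as a way to turn on Lin28b, an RNA-binding protein that blocks maturation of let-7. The paper reports that this loss could induce Lin28b in cancer-associated fibroblasts but did not do so in the PDAC line tested. That line belongs to the pair read here and, by the paper, does not express Lin28b highly, while the other line does. The paper also reports a negative correlation between the levels of Sirt6 and Lin28b in human and murine PDAC.

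In WES, capture probes enrich exons before sequencing, and coverage of a region is set against a reference to give its copy number. The paper's methods name a human exome library of NimbleGen and the labels a human exome kit of Agilent. Both kits hold probes for human exons, and the effect of this on mouse DNA was not tested. Neighboring bins with a common coverage form a segment, and a gene takes the log2 ratio of the segment that covers it. The authors' integer call was 2 copies for a log2 above -0.25 and up to 0.2, gained above that range and lost below it. The tables held 191 segments in 15376T and 235 in 14837T, with a mean autosomal depth of 43.4 and 47.5 reads. As the spread of a single value, the SD of log2 over segments of the autosomes at 2 copies was taken, which was 0.090 over 103 segments of 15376T and 0.095 over 96 segments of 14837T. The SD of the difference between the lines, over 119 stretches called at 2 copies in both, was 0.106. These spreads lie between segments of a library and are not errors between replicates.

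The sirtuin genes are shown by sequence, since Sirt1 and Sirt6 lie on either side of a segment border of 14837T on chromosome 10. The 250 bases before a RefSeq start of each gene (GRCm38.p6, minus strand, Sirt1 chr10:63339036-63339285 and Sirt6 chr10:81627567-81627816) are printed 5′ to 3′, with each CpG pair in capitals.
Sirt1: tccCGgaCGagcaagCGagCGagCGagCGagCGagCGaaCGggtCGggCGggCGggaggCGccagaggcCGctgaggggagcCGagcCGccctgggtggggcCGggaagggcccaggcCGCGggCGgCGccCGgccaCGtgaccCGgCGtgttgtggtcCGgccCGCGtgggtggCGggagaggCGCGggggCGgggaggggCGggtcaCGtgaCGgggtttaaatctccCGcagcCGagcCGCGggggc
Sirt6: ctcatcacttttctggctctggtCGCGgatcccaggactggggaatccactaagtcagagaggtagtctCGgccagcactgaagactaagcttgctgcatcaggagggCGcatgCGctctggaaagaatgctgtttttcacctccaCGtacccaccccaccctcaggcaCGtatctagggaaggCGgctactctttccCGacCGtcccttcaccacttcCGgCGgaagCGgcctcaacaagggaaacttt
Most of the Sirt6 window lies inside the widest RefSeq span of the gene, which reaches 81627792, while the Sirt1 window ends where the gene begins. Sirt1 held 39 CpG pairs in this window and Sirt6 held 13. At least as many as in Sirt1 were present in 1.52% of the 27025 promoter windows of this length, and at least as many as in Sirt6 in 31.8%. The median of all windows was 6 CpG pairs. All 10 genes were matched in this table, and Tet2 with 51 CpG pairs had the highest count among them, a count that 0.0666% of windows reach. Sirt6 had the lowest count of the 10, and the other 7 genes held between 21 and 48. The windows of Tet2, Kmt2d and Dnmt3a lie wholly inside the widest spans of these genes. The counts thus hold for the starts used and not for other starts of a gene.

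Of the 10 genes, 5 were called at 2 copies in both lines (Kmt2a, Kmt2c, Ezh2, Dnmt3b and Sirt1), against 41.4% of 21052 autosomal gene names with a call in each line. Tet2 was gained in both lines, where 6.90% of all names were gained in both, and 0 of the 10 were lost in both, against 22.4% of all names. The other 4 genes, Kmt2d, Setd2, Dnmt3a and Sirt6, had a different call in the lines, against 29.3% of all names. Counted by line, 1 gene was gained and 2 were lost in 15376T (all names 9.14% and 30.0%), and 3 were gained and 1 was lost in 14837T (all names 21.5% and 28.8%). With 10 genes, a single gene is 10% of the list, so these shares are given beside the background and nothing is read from them. The median absolute difference in log2 between the lines was 0.103 over the 10 genes and 0.123 over all 21052 names.

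**Figure D1:**
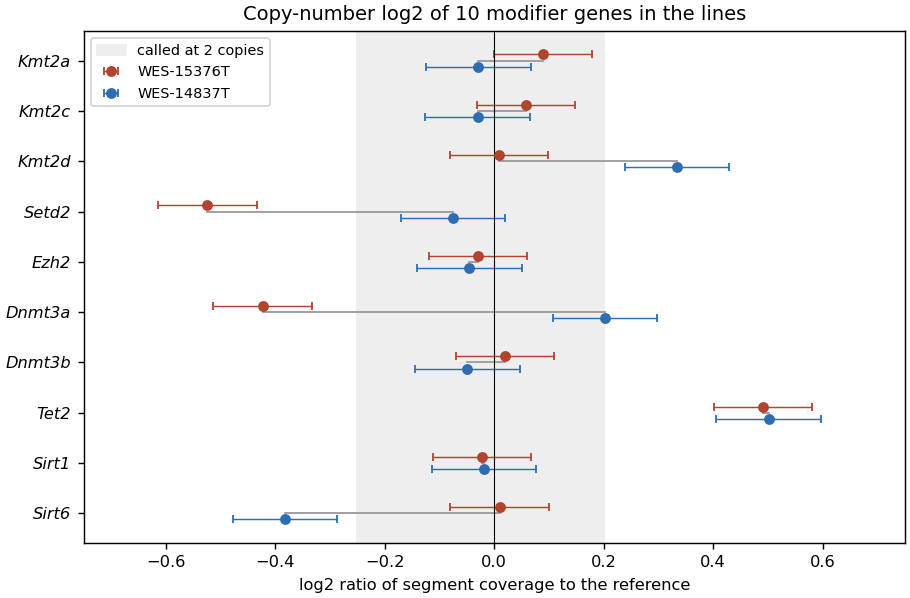
Segment log2 ratio (x axis) of the 10 genes (y axis) in WES-15376T (red) and WES-14837T (blue); bars are the SD of log2 over segments at 2 copies of the autosomes of that line, grey lines join the lines' values, and shading marks the range called at 2 copies. Sirt6 and Setd2 leave the shaded range in a single line each by loss and Kmt2d by gain, Dnmt3a lies on opposite sides of it, and Tet2 lies at 0.49 and 0.50.

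The H3K4 methyltransferase genes differed from each other in what they showed. Kmt2a (chr9:44803355-44881352), which encodes the enzyme split by translocations in acute leukemia, had a log2 of 0.089 in 15376T and -0.029 in 14837T. The difference of -0.12 was 1.11 times the SD of differences between stretches at 2 copies, and 48.4% of all names had a smaller absolute difference. In 15376T the gene lay in a segment of 3.32 Mb with 79 gene names, and in 14837T in a segment of 39.2 Mb with 460. Kmt2c (chr5:25271795-25498855), whose product marks enhancers, had a log2 of 0.058 and -0.030 in the same order. Its segment was the first of chromosome 5 in both lines, began at 3344363 and ended at 34866765 and 34852276, and the difference of -0.088 was below 1 SD. Kmt2e, a KMT2 gene by name, and Nsd2, which encodes an H3K36 methyltransferase, shared this segment with Kmt2c in both lines, at 1.77 and 8.32 Mb from it.

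Kmt2d (chr15:98831669-98874077), the closest relative of Kmt2c, was the member of the trio that was called differently. Its log2 was 0.0086 in 15376T, which corresponds to a mean of 2.01 copies per cell, and 0.33 in 14837T, which corresponds to 2.52. The difference of 0.33 was 3.06 SD and larger than that of 78.7% of all names. The call went from 2 copies to gained, as it did for 13.4% of all names. In 15376T the covering segment (96609793-102084384, 1274 bins) had a depth of 44.8 and lay to the right of a segment with a log2 of -0.22. The covering segment of 14837T (94394573-103943185, 1876 bins) had a depth of 60.5 and was the last of its chromosome. The ratio of the depths themselves, each over the median depth of segments at 2 copies, gave a difference of 0.37 on the log2 scale, with no reference in it. Here and for the genes below, depth comes from the same coverage as the log2, so it is no separate evidence for a difference. The segments of the lines can also differ in the bins that they hold. Hdac7, a class II histone deacetylase gene at 0.987 Mb from Kmt2d, lay in the same segment in both lines.

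Setd2 (chr9:110532500-110618633), the gene of the enzyme that trimethylates H3K36, was lost in 15376T and called at 2 copies in 14837T, a pair of calls that 6.45% of all names had. A segment border of 15376T lay within the gene, between bases 110572125 and 110573583 and 39.6 kb from its start. The log2 was -0.46 before the border and -0.59 after it, a step of -0.13. Both pieces were called as lost, and their mean of -0.52 corresponds to 1.39 copies per cell. In the gene table the depth of Setd2 over its own bins was 43.7 before the border (13 bins) and 33.8 after it (12 bins), a log2 ratio of -0.37 between parts of the same gene. Own depth is not set against a reference, so a difference in capture between these exons and a difference in copy number cannot be told apart in it. In 14837T the log2 was -0.075, or 1.90 copies, and the difference between the lines was 0.45 (4.22 SD), larger than that of 90.5% of all names. 14837T also had a border close to Setd2, 13.5 kb before the gene, where log2 went from 0.10 to -0.075. The borders of the lines were 54.6 kb apart.

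Setd2 and Kmt2a lie 65.7 Mb apart on chromosome 9. The loss that covered Setd2 in 15376T ran from 53480542 to 124160929 over 70.7 Mb in 6 segments, with log2 between -1.11 and -0.46. Kmt2a lay outside it, and a stretch of 7.19 Mb with a log2 of -0.058 separated the segment of Kmt2a from it.

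Ezh2 (chr6:47530274-47595270), the catalytic subunit of Polycomb repressive complex 2 (PRC2), was at 2 copies in both lines. Log2 was -0.029 in 15376T and -0.045 in 14837T, and 7.68% of all names had a smaller absolute difference than its -0.016. The lines differed in its B-allele fraction (BAF, how much of the reads at variant sites of the segment carries the allele that differs from the reference genome). In 15376T the BAF of the Ezh2 segment was 0.065, close to the median of 0.077 over autosomal length. In 14837T it was 0.40, a value that 96.5% of autosomal length did not exceed, in a segment of 127 Mb with 9981 bins. This was the only entry among the 10 genes in either line for which the authors called 1 copy of each allele. All others were called with every copy on the same allele. A low BAF was the rule, with a median over autosomal length of 0.077 in 15376T and 0.061 in 14837T. Whether an allele was lost or the alleles never differed cannot be told apart from these values, so no loss of an allele is read from such calls. The number of variants behind each BAF is not in the tables, so its precision is unknown.

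**Figure D2:**
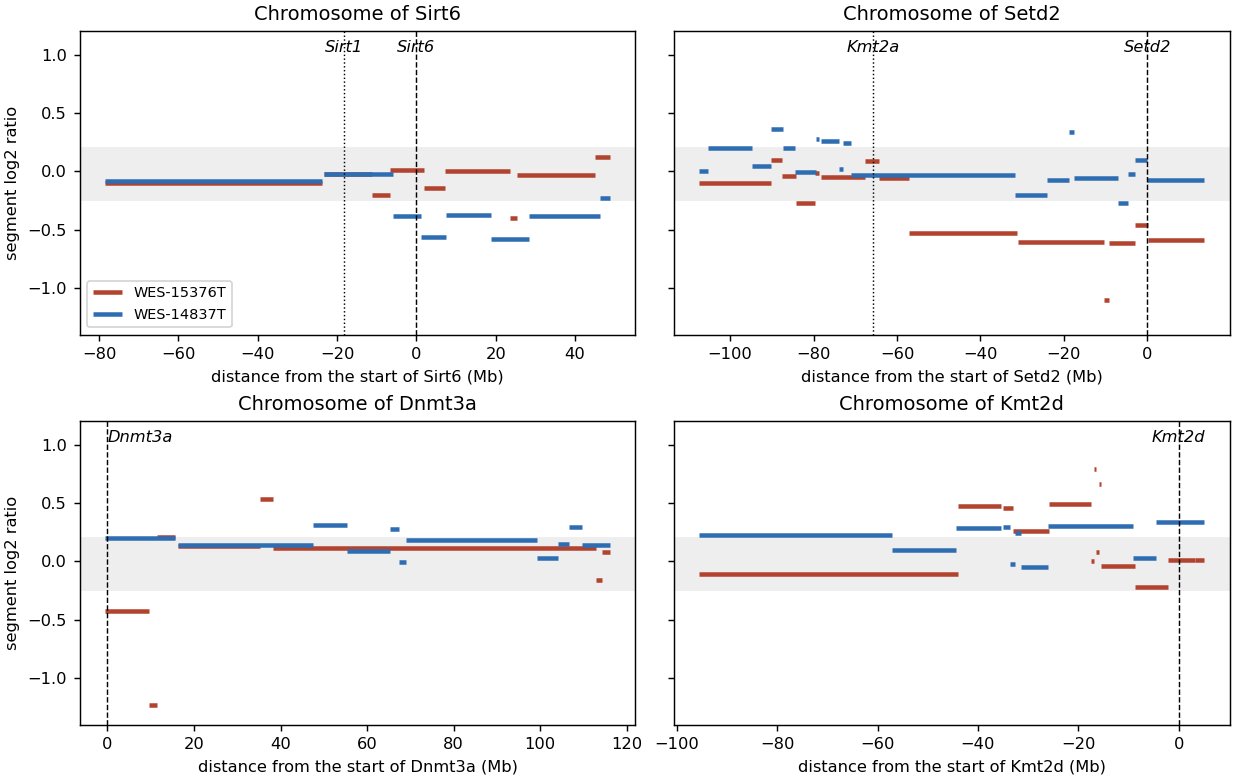
Segment log2 ratio (y axis) along the chromosomes of Sirt6, Setd2, Dnmt3a and Kmt2d, with distance from the lower coordinate of that gene in Mb (x axis) in WES-15376T (red) and WES-14837T (blue); shading marks the range called at 2 copies, dashed lines the named gene and dotted lines Sirt1 and Kmt2a. Sirt6 lies near the left end of a 52.4 Mb loss of WES-14837T, Setd2 in a 70.7 Mb loss of WES-15376T, and Dnmt3a in a 12.1 Mb loss of WES-15376T.

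The DNA methyltransferase genes Dnmt3a and Dnmt3b, which encode the enzymes of de novo methylation, went separate ways. Dnmt3a (chr12:3801559-3914443) was lost in 15376T with a log2 of -0.42 and gained in 14837T with a log2 of 0.20. These values correspond to 1.49 and 2.30 copies per cell. Of all names, 1.57% were lost in a line and gained in the other. The difference of 0.63 was 5.89 SD, and 97.7% of all names had a smaller one. It was the largest among the 10 genes. The gain in 14837T was only just above the threshold of 0.2 (log2 of 0.203), and at an absolute log2 of 0.3 it is not called. Depth, from the same coverage, was 34.4 over 608 bins in 15376T and 55.6 over 845 bins in 14837T. The ratio of depths, over segments of different extent, gave 0.62 on the log2 scale.

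The segment of Dnmt3a was the first of chromosome 12 in both lines, from 3235488 to 13362647 in 15376T and to 19330941 in 14837T. In 15376T the next segment had a lower log2 still (-1.23), and beyond that loss of 12.1 Mb the log2 was 0.21, against 0.20 in 14837T. Past the loss, the lines thus differed by -0.0093. In 14837T the segment after that of Dnmt3a had a log2 of 0.14, within the range called at 2 copies. The step to it was -0.060, below the SD of 0.095, so the gain is not set apart from its neighbor beyond that spread. Over its own 23 bins Dnmt3a had a depth of 29.1 in 15376T, which was -0.24 on the log2 scale against its segment. Of the 4548 listed genes for which this measure was taken in 15376T, 19.3% lay lower. 14837T does not list Dnmt3a in its gene table, whose entries begin at an absolute log2 of 0.40.

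Dnmt3b (chr2:153649411-153687730) was at 2 copies in both lines, with a log2 of 0.019 in 15376T and -0.049 in 14837T. The difference of -0.068 was 0.644 SD. Its segment was 9.07 Mb long in 15376T and 83.1 Mb in 14837T. The BAF of this segment was 0.067 in 15376T and 0.214 in 14837T, where 88.3% of autosomal length did not exceed it.

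Tet2 (chr3:133463677-133545136), the gene of a dioxygenase that starts removal of DNA methylation, was gained alike in both lines. Log2 was 0.49 in 15376T and 0.50 in 14837T, or 2.81 and 2.83 copies per cell, and the difference of 0.0099 was 0.0930 SD. The gains that held it were 45.6 Mb (4 segments) and 44.8 Mb (6 segments) long. Both ran to 159934364, which lies near the end of chromosome 3, so no shared breakpoint is read from it. They began at different bases, 114356284 in 15376T and 115102533 in 14837T.

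Tet2 was the only member listed in both gene tables, so that its own bins could be compared between the lines. Over 11 bins its depth was 89.2 in 15376T and 91.6 in 14837T. Set over the median depth of segments at 2 copies (45.6 and 47.9), the log2 ratio between the lines was -0.031. The SD of this ratio around the difference of the segments was 0.209 over 3425 genes listed in both tables, and 0.148 over the 1983 of them with at least 5 bins. The own depth of Tet2 thus differed between the lines by less than the spread of such ratios. The own depth of Tet2 was above that of its segment in both lines, by 0.46 and 0.42 on the log2 scale. On this measure 79.2% of 4548 genes lay lower in 15376T and 75.1% of 2770 genes in 14837T. These are the listed genes for which this measure was taken, and not all 7960 and 4755 listed.

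Sirt1 (chr10:63319005-63339035) and Sirt6 (chr10:81621787-81627792) lie 18.3 Mb apart. Sirt1, a deacetylase of histones and of p53, was at 2 copies in both lines, with a log2 of -0.022 in 15376T and -0.019 in 14837T. The difference of 0.0030 was the smallest among the 10 genes, and 1.25% of all names had a smaller one. Its segment began at 58235487 in both lines and ended at 70440287 in 15376T and at 75639540 in 14837T. Tet1, which encodes a relative of Tet2, lay in it in both lines, 0.432 Mb from Sirt1.

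Sirt6, whose product deacetylates H3K9 and H3K56, had a log2 of 0.010 in 15376T and -0.38 in 14837T. These values correspond to 2.01 and 1.53 copies per cell, and the call went from 2 copies to lost, as for 6.04% of all names. The difference of -0.39 was 3.69 SD, and 85.7% of all names had a smaller absolute difference. The line with the loss, 14837T, is also the line in which the paper knocked out Sirt6. Whether expression of Sirt6 follows these copy numbers was not tested. The covering segment of 15376T ran from 74959516 to 83608785 (2196 bins, 264 gene names) and that of 14837T from 75639546 to 82896070 (1986 bins, 246 gene names). Depth was 40.8 in 15376T and 33.2 in 14837T, and the ratio of depths gave -0.37 on the log2 scale. In both lines the depth of this segment was low for its log2. Over the median depth of segments at 2 copies it was -0.16 in 15376T and -0.53 in 14837T on the log2 scale, so the level of Sirt6 in each line, but not the difference between them, moved when no reference was used.

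The border that set Sirt6 apart from Sirt1 in 14837T lay 5.98 Mb before Sirt6, between 75639540 and 75639546, with a step of -0.36. From there 5 segments in a row were lost up to 128029864, over 52.4 Mb and with log2 between -0.58 and -0.37. The segment of Sirt6 was the first of these, and the next one, 1.27 Mb past the gene, had a log2 of -0.57. In 15376T the gene lay in a run of 102 Mb called at 2 copies in 6 segments, with log2 between -0.20 and 0.010. The loss that held Sirt6 also held, in the same segment in both lines, Dot1l (0.826 Mb away), Tdg (1.00 Mb) and Dnmt3l (3.56 Mb). Dot1l encodes the methyltransferase of H3K79, Tdg a glycosylase that removes oxidized methylcytosine, and Dnmt3l a cofactor of Dnmt3a and Dnmt3b. All 3 therefore share the log2 of Sirt6 in both lines, and the segment gives no measure that is particular to Sirt6. BAF of the segment was 0.162 in 15376T and 0.111 in 14837T, both above the medians of 0.077 and 0.061 over autosomal length. Sirt6 is in neither gene table, since its log2 is under 0.40 in size in both lines, so no depth over its own bins was at hand.

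The level of the 10 genes within each library could be ordered only in part. In 15376T the order was Setd2, Dnmt3a, then 7 genes at 2 copies from -0.029 to 0.089 whose neighbors did not differ beyond the SD of segments, and then Tet2. 14837T had Sirt6 lowest, then 6 genes from -0.075 to -0.019 whose neighbors did not differ beyond that SD, and then Dnmt3a, Kmt2d and Tet2. The gap from Setd2 to Dnmt3a in 15376T (0.10) was only just above the SD. If every cell of a diploid line had lost 1 of 2 copies the log2 would be -1, and with 3 copies in every cell it would be 0.585. The lost members lay between -0.59 and -0.38 and the gained members between 0.20 and 0.50, nearer to 0 than these values in each case. The reason was not tested.

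**Figure D3:**
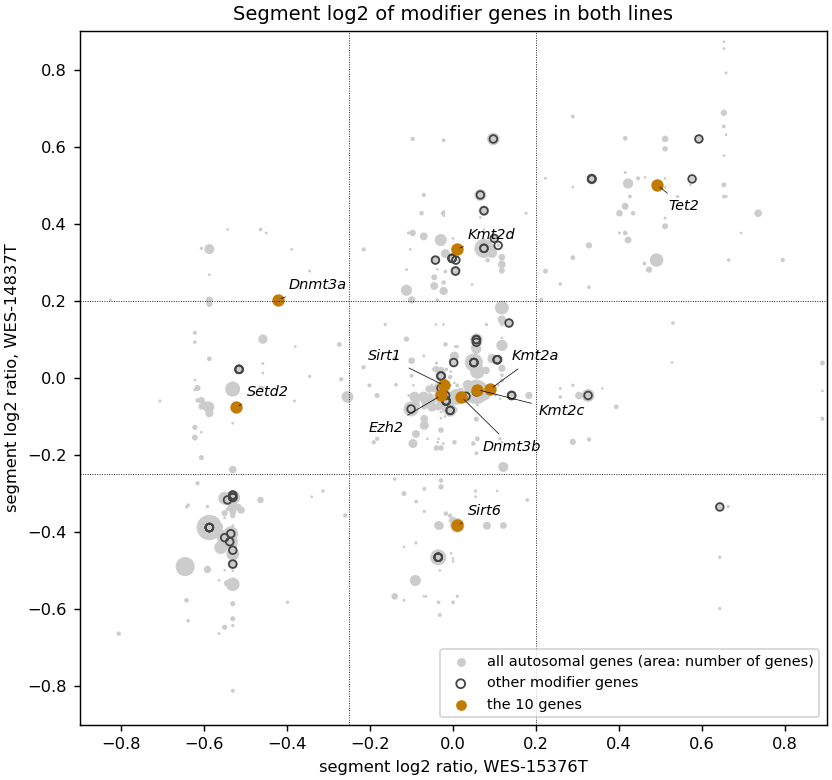
Segment log2 ratio of autosomal genes in WES-15376T (x axis) against WES-14837T (y axis), with the 10 genes filled, 76 other modifier genes as open circles and all autosomal gene names in grey by number of genes; dotted lines mark the thresholds for loss and gain, and names beyond the axes are not drawn. Dnmt3a lies at a loss in WES-15376T and a gain in WES-14837T, Kat6b at the reverse, and Tet2 in the field gained in both.

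A wider list of 82 other modifier genes was read in the same way, of which 76 are autosomal. In 15376T 7 of these 76 were gained (9.21%) and 18 lost (23.7%). In 14837T 19 were gained (25%) and 23 lost (30.3%). A different call was found for 26 (34.2%), and 30 were at 2 copies in both lines, 15 lost in both and 5 gained in both. These shares stand beside those of all autosomal names given above, and nothing is read from them. The 76 genes are not independent of each other, because the 18 losses of 15376T lay in 7 segments and the 23 of 14837T in 12. The median absolute difference between the lines was 0.184 over the 76 genes.

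Among sirtuins, 4 of 7 genes were lost in 14837T (Sirt2, Sirt3, Sirt5 and Sirt6) and 2 of them, Sirt2 and Sirt3, in 15376T, against 28.8% and 30.0% of all autosomal names. Sirt2, a mainly cytoplasmic deacetylase, had a log2 of -0.53 in 15376T and -0.31 in 14837T, and Sirt3, a mitochondrial one, -0.53 and -0.48. In 15376T Sirt2 and Sirt3 lay in the same segment of chromosome 7, so they are not separate losses there. Kmt2b, Setd1a and Eed, named below, lay in that segment of 15376T too. Sirt5, which removes succinyl and malonyl groups, had a pattern like that of Sirt6 on another chromosome, at -0.036 in 15376T and -0.47 in 14837T. It shared these values with Kdm1b, Nsd1 and Jarid2 on chromosome 13. No sirtuin gene was gained in either line, where 9.14% of all names were gained in 15376T and 21.5% in 14837T. With 7 genes nothing is read from this.

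Of 9 genes for DNA methylation and its removal, 5 had a different call in the lines, against 29.3% of all names, and with so few genes, some of them on a shared segment, nothing is read from this count or from those of the other groups. Beside Dnmt3a, Dnmt3l and Tdg these were Dnmt1, the maintenance methyltransferase, at 0.099 in 15376T and 0.36 in 14837T, and Uhrf1, which guides Dnmt1 to newly copied DNA, at -0.0025 and 0.31. Both were gained in 14837T. Thus, in 14837T, 4 of the 9 were gained (Tet2, Dnmt3a, Dnmt1 and Uhrf1) and 2 were lost (Tdg and Dnmt3l), against 21.5% and 28.8% of all names, and in 15376T Tet2 was gained and Dnmt3a was lost.

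H3K4 methyltransferases and their core subunits were lost for 3 of 13 genes in 15376T and for 2 in 14837T (all names 30.0% and 28.8%), and gained for 1 and 4 (all names 9.14% and 21.5%). Kmt2b and Setd1a, which encode enzymes of this group, were lost in both lines, with a log2 of -0.53 for both genes in 15376T and of -0.31 and -0.30 in 14837T. Ash1l, counted here although its product is best known for methylating H3K36, had the highest log2 of the group at 0.62 in 14837T, against 0.097 in 15376T. Men1, the scaffold that ties Kmt2a and Kmt2b to chromatin, was gained in both lines (0.33 and 0.52). Ash2l, a shared subunit of the KMT2 complexes, was lost in 15376T (-0.52) and at 2 copies in 14837T (0.022), together with Nsd3 and Kat6a on the same segments of chromosome 8.

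Of 9 genes that write or erase methylation of H3K36, 4 were lost in 15376T and 3 in 14837T, and 4 had a different call (all names 30.0%, 28.8% and 29.3%). Besides Setd2 and Nsd3 these were Nsd1, lost in 14837T, and Kdm4b, at -0.0025 in 15376T and gained at 0.31 in 14837T. PRC2 subunits and H3K27 demethylases were lost for 2 of 11 genes in 15376T and 3 in 14837T, against 30.0% and 28.8% of all names. Eed, a core partner of Ezh2, was lost in both (-0.53 and -0.45), and Rbbp4, which binds histones in this complex, likewise (-0.59 and -0.39). Jarid2, which helps to recruit PRC2, was lost in 14837T, while Phf1 and Aebp2 were gained there at 0.34 each. Ring1 and Pcgf6 of PRC1 were gained in 14837T (0.34 and 0.48), and 0 of 6 PRC1 genes were lost in either line (all names 30.0% and 28.8%).

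Acetyltransferase genes were lost for 3 of 9 in each line, gained for 2 in 15376T and for 3 in 14837T, and 4 had a different call. Of all names, 30.0% and 28.8% were lost and 9.14% and 21.5% gained in these lines, and 29.3% had a different call. Crebbp, which acetylates H3K27, was lost in both lines (-0.54 and -0.40), whereas its close relative Ep300 was at 0.0064 in 15376T and gained in 14837T at 0.31. In 15376T the segment of Ep300 lay between gained segments with a log2 of 0.49 and 0.79. For Ep300 the ratio of segment depths between the lines gave 0.040 on the log2 scale, against a log2 difference of 0.30. The contrast between the lines in Ep300 was thus not seen in depth. Kat6b was the only gene of the wider autosomal list with opposite calls, gained in 15376T at 0.64 and lost in 14837T at -0.33. Its relative Kat6a was lost in 15376T and at 2 copies in 14837T, as given above. Deacetylases of class I, II and IV were lost for 2 of 9 genes in both lines (22.4% of all names were lost in both), which were Hdac1 (-0.59 and -0.39) and Hdac3 (-0.54 and -0.32). Hdac1 lay in the same segment of chromosome 4 as Rbbp4 in both lines. Hdac7 and Hdac10 were gained in 14837T, where 21.5% of all names were gained. Among genes for methylation of H3K9, H3K79 and H4K20, Setdb1 had the highest log2 in both lines (0.59 and 0.62).

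The 6 genes of the list on chromosome X are given apart, because their expected number of copies depends on the sex of the line and of the reference, which the tables do not state. Kdm5c and Rbbp7 had a log2 of -0.56 in 15376T and -0.16 in 14837T, and Hdac8 had -0.56 and -0.088. The other 3 lay at -0.17 in 15376T and at -0.069 in 14837T.

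**Figure D4:**
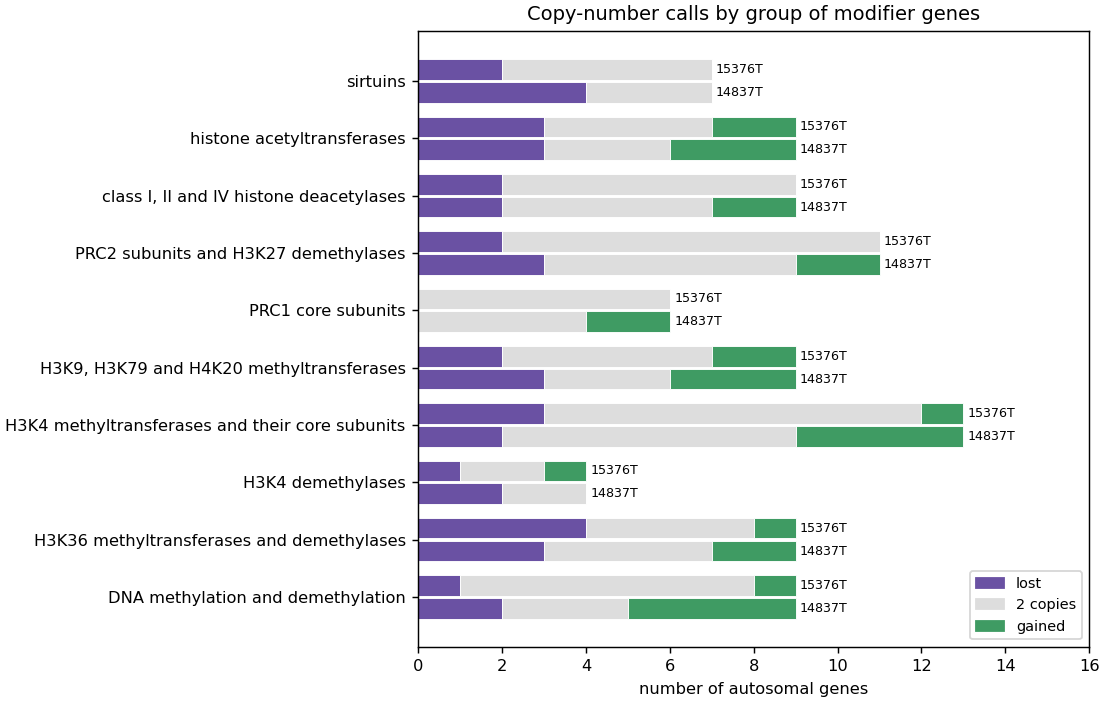
Number of autosomal genes (x axis) called lost, at 2 copies or gained in each group of modifier genes (y axis), the 10 genes included, for WES-15376T (upper bar) and WES-14837T (lower bar). Sirtuins have no gain, 2 losses in the upper and 4 in the lower bar, and PRC1 subunits have no loss. Of all names, 9.14% and 21.5% were gained and 30.0% and 28.8% lost in WES-15376T and WES-14837T.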

How the data were processed

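The WES tables of 15376T and 14837T were used, and the libraries are not replicates. The aligner, the copy-number program and the reference are not given in the sources used here. The columns are those of CNVkit, and the submitters' processing notes name the build mm10. The log2 deposited by the authors is the log2 ratio of segment coverage to that reference. As deposited, BAF is a fraction, the depth is a coverage signal without normalization, and the weight is a score deposited by the authors that was not used. The authors' integer copy numbers were used as calls, and followed the default log2 thresholds of CNVkit (0.2 and -0.25) with 0 exceptions. Starts were written counting from 1.

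Members were found by symbol. The segments found by RefSeq position on GRCm38.p6 were the same. Copies per cell are 2 times 2 to the power of the log2 ratio, which assumes a reference with 2 copies. Autosomal names that lay in segments of different calls were left out of the background (45 for 15376T and 51 for 14837T). The value of a gene with a border inside it is the mean of its pieces. Alternatives were recentred log2, depth without a reference, the gene tables' values, calls at an absolute log2 of 0.3 or 0.5, and a count of segments in place of genes. All 10 members are named. Of the wider list, a gene could be named where it had a different call, an absolute log2 of at least 0.5 or a segment shared with a member, and the text gives examples of these, picked with their values known, and not all of them. The members, the lists and the alternatives were chosen with earlier results of these data known. The steps were tested on simulated data. Python 3.11.15, numpy 2.4.6, pandas 2.3.3 and matplotlib 3.10.9 were used. Each line has 1 library, so no p-value is given. The tables do not hold the spread between bins, and thus no interval was set on a segment. A further engineered allele that both lines carry is not reported here.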

Additional observations from a re-analysis of the deposited data

Results flagged for a closer look

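Dnmt3a lay on opposite sides of 2 copies in the lines, with a log2 of -0.42 in 15376T and 0.20 in 14837T. The gain in 14837T was only just above the threshold of 0.2. Kat6b, an acetyltransferase gene of the wider list, showed the reverse, with a log2 of 0.64 in 15376T and -0.33 in 14837T. With 1 library per line, neither difference was tested.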

How the results depend on the processing

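No call of the 10 genes changed when log2 was recentred on the autosomal median, and no gain became a loss, nor a loss a gain, under the alternatives run. At an absolute log2 of 0.3 the call that changed was the gain of Dnmt3a in 14837T. With calls at an absolute log2 of 0.5, 0 of the 10 genes were gained and 1 was lost in 15376T, 1 was gained and 0 were lost in 14837T, and 2 had a different call. The genes with a different call are then Setd2, lost in 15376T only after its border, and Tet2. The log2 of Tet2, 0.491 in 15376T and 0.501 in 14837T, lies on either side of this limit. Sirt6, Dnmt3a and Kmt2d are then called in neither line. With the same limit 3 of the 76 other genes were gained in 15376T, and 6 were gained, 0 lost and 70 at 2 copies in 14837T. No share of all autosomal names was taken at this limit, so nothing is read from these counts. When each segment was counted once, the 76 genes gave 7 losses and 26 segments at 2 copies in 15376T, and 11 gains, 12 losses and 16 at 2 copies in 14837T, which follows from genes that share segments. Depth in place of log2 moved 5 single values by more than the SD of segments: Kmt2c to 0.16 in 15376T and 0.071 in 14837T, Sirt1 to -0.13 in 14837T, and Sirt6 to -0.16 and -0.53. The cause was not tested. The differences between the lines kept their sign and size within the SD for 9 of the 10 genes, and for Sirt1, whose difference is near 0, the sign changed (0.0030 and -0.015). No paired analysis was possible because neither line has a second WES library to pair.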
